A study of Homo sapiens with 2 samples.

Results

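The genes described here encode 10 brakes on mTORC1, the protein kinase complex that couples nutrients and growth signals to protein synthesis, together with translational repressors that it controls. They were chosen by gene symbol: DDIT4 and DDIT4L, the Sestrins SESN1, SESN2 and SESN3, the TSC1 and TSC2 subunits of the tuberous sclerosis complex, DEPTOR, and the 4E-BP genes EIF4EBP1 and EIF4EBP2. All 10 were found among the 16021 rows of the expression table, by Entrez gene number. RNA was sequenced from the human gastric cancer line HGC-27, transduced with lentivirus that carried an shRNA against the RNA helicase DDX5 or a non-targeting shRNA as control. Both cultures received puromycin from 48 h after transduction and were harvested after 1 more week. Each condition had 1 library, so no p-value, standard error or interval between cultures could be had, and whether another pair of cultures would give the same values was not measured. In such bulk RNA, a change in the mix of cells and a change in RNA per cell cannot be told apart.

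mTORC1 is active at the lysosome when the small GTPase RHEB is loaded with GTP and the Rag GTPases report amino acids. The TSC1-TSC2 complex switches RHEB off, and DDIT4 (also called REDD1) and its relative DDIT4L (REDD2) act through that complex. Sestrins bind the GATOR2 complex when leucine is scarce and so keep the Rag GTPases from activating mTORC1, while DEPTOR binds the kinase itself. The 4E-BPs hold the cap-binding protein EIF4E away from mRNA until mTORC1 phosphorylates them. In other cell systems DDIT4 is induced by hypoxia, glucocorticoids and the amino acid response factor ATF4, SESN2 and EIF4EBP1 by ATF4, and SESN3 by FOXO factors.

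The labels were checked first on the targeted gene. DDX5 stood at 50.78 FPKM (a fragment count divided by transcript length and by the size of the library) in the DDX5 shRNA library, against 170.5 FPKM in the non-targeting library, which is 29.8% of the control level. Across the table, 11413 genes averaged at least 1 FPKM across both libraries, and these entered all counts. Ratios are given as log2 of FPKM + 1, with DDX5 shRNA over non-targeting shRNA. This scale understates differences of weakly expressed genes, and the median over all counted genes was 0.02. A gene is called 2-fold higher or lower where that log2 ratio is at least 1, or at most -1. Total FPKM was 594757 in the DDX5 shRNA library and 549129 in the non-targeting library, and rescaling both to the same total moved the median of all genes by -0.10. Of 8 mesenchymal-type markers, 7 reached a mean of 1 FPKM, from FN1 at 5.99 FPKM in the DDX5 shRNA library and 4.76 FPKM in the non-targeting library to VIM at 1270.59 FPKM in the DDX5 shRNA library and 1583.62 FPKM in the non-targeting library. TWIST1 lay at the 2-fold line, at 199 FPKM in the DDX5 shRNA library and 98.96 FPKM in the non-targeting library, and CDH2 was listed at 0 in the DDX5 shRNA library and 0.07 FPKM in the non-targeting library. Of 13 epithelial and gastric markers, 7 were analysed here and only CLDN7 and KRT8 reached a mean of 1 FPKM. CLDN7 was 2-fold higher, at 9.84 FPKM in the DDX5 shRNA library and 2.36 FPKM in the non-targeting library, and KRT8 2-fold lower, at 1.31 FPKM in the DDX5 shRNA library and 5.24 FPKM in the non-targeting library. The cadherin gene CDH1 was listed at 0.07 FPKM in the DDX5 shRNA library and 0.36 FPKM in the non-targeting library. Of 14 immune, endothelial and fibroblast markers, 10 were analysed, and their summed level was 536.47 FPKM in the DDX5 shRNA library and 478.11 FPKM in the non-targeting library, mostly from COL1A1, LUM and DCN. Among them DCN was 2-fold higher, at 140.68 FPKM in the DDX5 shRNA library and 68.13 FPKM in the non-targeting library, and the part of these marker differences in the results below was not tested.

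Of the 10 genes, 5 reached the 2-fold line upward in the DDX5 shRNA library (DDIT4, SESN2, EIF4EBP1, SESN3 and DDIT4L) and 0 were 2-fold lower. Among all counted genes, 4.19% were 2-fold higher and 2.26% were 2-fold lower. That excess of higher genes was absent at the same total, where 376 genes were 2-fold higher and 380 were 2-fold lower. It remained where ribosomal protein genes were left out of that total, with 472 genes 2-fold higher and 259 2-fold lower. With a pseudocount of 5 in place of 1, 3 of the 10 genes and 1.7% of all genes were 2-fold higher. These 10 genes were put together with results of this comparison known, so the count describes them and tests nothing. A log2 ratio above 0 was found for 7 of the 10 genes, against 52% of all counted genes. Their median log2 ratio was 0.83, and the values ran from -0.40 for EIF4EBP2 to 3.02 for DDIT4. Each of the families held members that lay apart: SESN2 and SESN3 against SESN1, EIF4EBP1 against EIF4EBP2, and DDIT4 against DDIT4L.

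**Figure D1:**
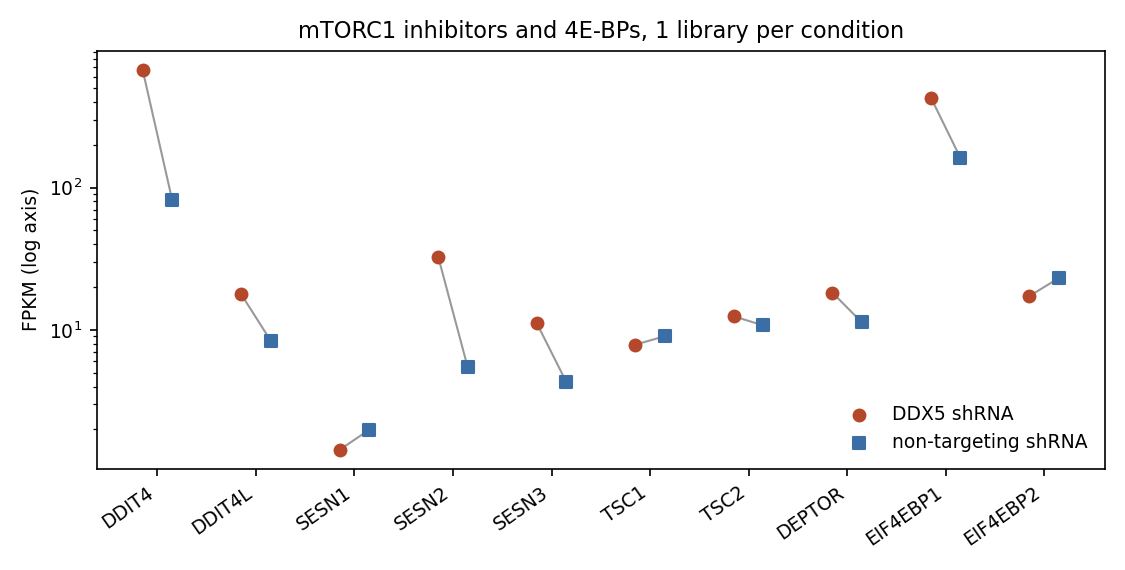
Deposited FPKM on a log axis for the 10 genes, with the DDX5 shRNA library as a circle on the left and the non-targeting library as a square on the right, 1 library each. DDIT4 spans the largest distance, at 671.4 FPKM in the DDX5 shRNA library and 81.72 FPKM in the non-targeting library, while SESN1, TSC1 and EIF4EBP2 are lower in the DDX5 shRNA library.

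Start-site sequence is shown for 4 genes, to set DDIT4, SESN2 and DDIT4L, which were 2-fold higher, beside TSC2, which was not. Each window runs from 250 bases before to 50 bases after a RefSeq transcript start (build GRCh38.p14), 5′ to 3′ on the gene's strand. Capitals mark matches on either strand to TGATGNAA (the core of the amino acid response element bound by ATF4), ACGTG (the core of the hypoxia response element), CACGTG (the E-box, which contains ACGTG), or CCAAT (the CCAAT box of many promoters). They also mark TATAAA, the TATA box that positions the start of transcription in some genes, and GTAAACA, the site of FOXO factors. DDIT4 lies at chr10:72273674-72273973, plus strand, SESN2 at chr1:28259268-28259567, plus strand, DDIT4L at chr4:100190419-100190718, minus strand, and TSC2 at chr16:2047735-2048034, plus strand.
DDIT4: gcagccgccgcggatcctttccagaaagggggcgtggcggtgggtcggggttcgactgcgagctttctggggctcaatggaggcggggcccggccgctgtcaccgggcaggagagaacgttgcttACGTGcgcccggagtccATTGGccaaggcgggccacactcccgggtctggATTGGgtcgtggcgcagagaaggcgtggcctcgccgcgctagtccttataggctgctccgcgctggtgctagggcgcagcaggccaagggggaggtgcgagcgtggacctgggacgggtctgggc
SESN2: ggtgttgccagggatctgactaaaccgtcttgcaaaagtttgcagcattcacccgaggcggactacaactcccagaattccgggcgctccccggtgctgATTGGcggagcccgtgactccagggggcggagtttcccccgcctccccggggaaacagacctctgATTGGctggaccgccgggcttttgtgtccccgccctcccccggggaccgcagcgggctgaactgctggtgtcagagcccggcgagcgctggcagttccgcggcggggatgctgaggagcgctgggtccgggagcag
DDIT4L: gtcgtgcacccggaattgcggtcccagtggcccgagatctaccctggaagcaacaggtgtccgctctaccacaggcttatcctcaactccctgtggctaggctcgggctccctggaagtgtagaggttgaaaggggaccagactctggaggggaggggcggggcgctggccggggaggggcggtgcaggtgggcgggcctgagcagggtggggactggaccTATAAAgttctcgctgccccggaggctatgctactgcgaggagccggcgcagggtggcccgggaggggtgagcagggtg
TSC2: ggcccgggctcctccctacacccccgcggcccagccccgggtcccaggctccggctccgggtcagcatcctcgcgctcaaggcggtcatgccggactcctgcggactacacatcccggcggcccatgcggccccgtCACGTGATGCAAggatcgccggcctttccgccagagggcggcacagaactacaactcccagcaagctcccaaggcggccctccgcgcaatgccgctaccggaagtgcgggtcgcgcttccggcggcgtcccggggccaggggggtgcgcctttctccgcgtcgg

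The DDIT4 window held ACGTG at 125 bases before the start and the CCAAT box, on the opposite strand, at 108 and 75 bases before it. The SESN2 window also held the CCAAT box in that orientation at 2 places, 151 and 86 bases before the start, and no match to the other motifs. The DDIT4L window held TATAAA 29 bases before the start and no CCAAT box. In TSC2 the E-box CACGTG, 114 bases before the start, overlapped TGATGCAA, a match to the amino acid response core. That was the only match to this core in the 11 windows found for 8 of the 10 genes, and the gene that carried it differed little between the libraries (log2 ratio 0.19). No window was found for EIF4EBP1 or DEPTOR, so neither was searched for any of the motifs. Across 35116 promoter windows of the same length, 3.62% held TGATGNAA, 21.4% ACGTG, 7.26% CACGTG, 34.6% CCAAT, 11.5% TATAAA and 3.42% GTAAACA. The windows of SESN3, TSC1 and EIF4EBP2 and the second TSC2 window held no match to any of the 6 motifs, and 2 of the 3 SESN1 windows held a CCAAT box. A match is only a run of letters, and the absence of one says nothing of sites outside these windows.

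DDIT4, the REDD1 gene, stood at 671.4 FPKM in the DDX5 shRNA library, against 81.72 FPKM in the non-targeting library. That is 8.22-fold more, a log2 ratio of 3.02. Only 10 of the 11413 counted genes had a higher ratio, which places DDIT4 at rank 11. By level it ranked 110 among all rows in the DDX5 shRNA library and 979 in the non-targeting library, so it belonged to the most abundant mRNAs of the DDX5 shRNA cells. Per mRNA of TSC2, through whose complex its protein acts, there were 53.9 FPKM of DDIT4 for each FPKM in the DDX5 shRNA library and 7.60 in the non-targeting library.

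DDIT4L, the REDD2 gene, was far less abundant, at 17.82 FPKM in the DDX5 shRNA library and 8.4 FPKM in the non-targeting library. It went in the same direction as DDIT4, 2.12-fold on the deposited FPKM, but its log2 ratio of 1.002 lay at the 2-fold line, and was 0.90, below it, with both libraries at the same total. The ratio of DDIT4 to DDIT4L was 37.7 in the DDX5 shRNA library and 9.73 in the non-targeting library. An antisense gene, DDIT4L-AS1, overlaps DDIT4L in RefSeq, and whether counting used strand is not given in the sources used here.

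**Figure D2:**
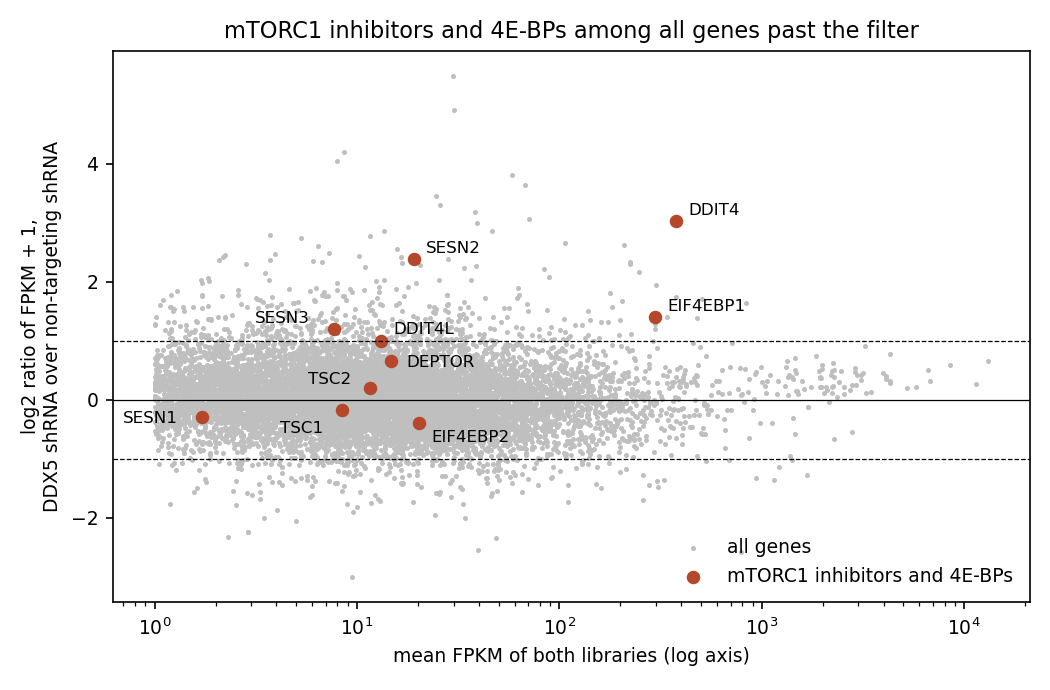
Log2 ratio of FPKM + 1, DDX5 shRNA over non-targeting shRNA, against mean FPKM of both libraries (log axis) for 11413 genes in grey, with the 10 genes in red and dashed lines at 2-fold. DDIT4 and EIF4EBP1 lie to the right, among abundant mRNAs, and SESN1 lies at the left edge.

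The 3 Sestrins differed in both level and direction. SESN2, a leucine-binding Sestrin, stood at 32.6 FPKM in the DDX5 shRNA library and 5.45 FPKM in the non-targeting library, a 5.98-fold difference and a log2 ratio of 2.38. It ranked 29 from the highest ratio. SESN3 stood at 11.15 FPKM in the DDX5 shRNA library and 4.31 FPKM in the non-targeting library, 2.59-fold more, with a log2 ratio of 1.19. SESN1, the remaining Sestrin, was the lowest of the 10 genes in both libraries, at 1.44 FPKM in the DDX5 shRNA library and 1.99 FPKM in the non-targeting library. Its log2 ratio of -0.29 rests on few fragments, about 81 in the DDX5 shRNA library and 113 in the non-targeting library by an approximate depth estimate. SESN1 overlaps the gene ARMC2 (0.27 FPKM in the DDX5 shRNA library and 0.43 FPKM in the non-targeting library), and SESN3 overlaps the non-coding gene LOC100129203, so some of their reads could be shared.

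Summed over the family, Sestrin mRNA was 45.19 FPKM in the DDX5 shRNA library and 11.75 FPKM in the non-targeting library, 3.85-fold more. SESN2 made up 72.1% of that sum in the DDX5 shRNA library and 46.4% in the non-targeting library. The share of SESN3 was 24.7% in the DDX5 shRNA library and 36.7% in the non-targeting library, so its share was smaller although its level was higher. SESN1 contributed 3.19% in the DDX5 shRNA library and 16.9% in the non-targeting library. SESN2 led the family in both libraries, followed by SESN3 and then SESN1. The 5 subunits of GATOR2, the complex that Sestrins bind, had log2 ratios from -0.54 to 0.26 (these subunits were picked out after their values were seen).

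**Figure D3:**
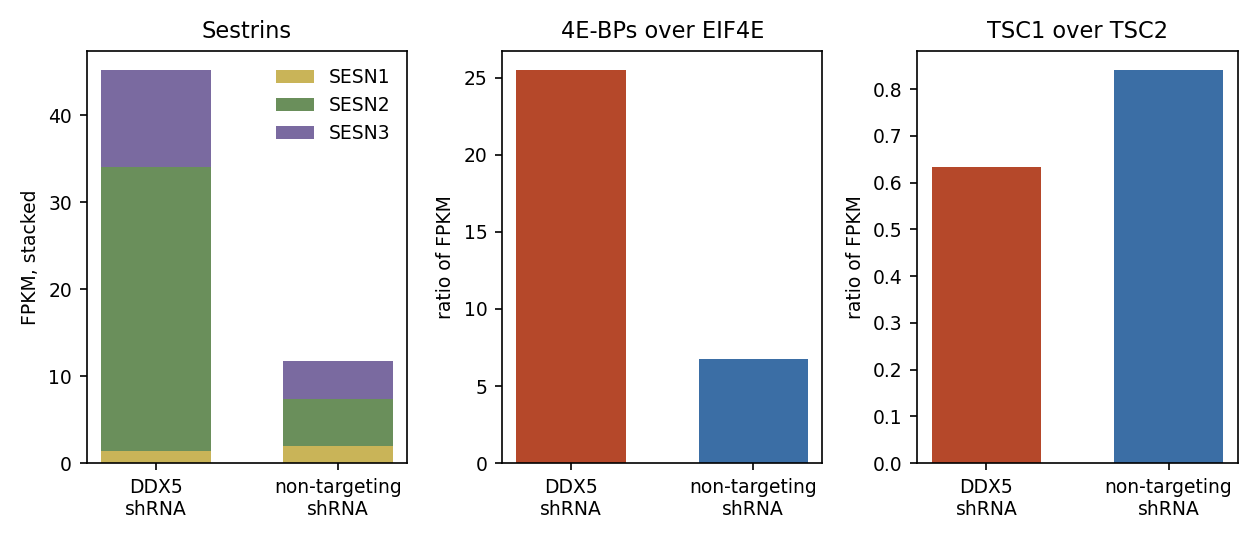
Stacked FPKM of the 3 Sestrin genes (left panel), the summed FPKM of EIF4EBP1, EIF4EBP2 and EIF4EBP3 over that of EIF4E (middle panel) and the FPKM of TSC1 over that of TSC2 (right panel), with the DDX5 shRNA library left of the non-targeting library and 1 library each. The Sestrin sum is 45.19 FPKM in the DDX5 shRNA library and 11.75 FPKM in the non-targeting library, and the 4E-BP ratio is 25.5 in the DDX5 shRNA library and 6.77 in the non-targeting library.

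TSC1 and TSC2, whose proteins form the complex that turns RHEB off, were both within 2-fold. TSC1, the stabilising subunit, stood at 7.88 FPKM in the DDX5 shRNA library and 9.03 FPKM in the non-targeting library, a log2 ratio of -0.18. TSC2, the catalytic subunit, stood at 12.45 FPKM in the DDX5 shRNA library and 10.75 FPKM in the non-targeting library, a log2 ratio of 0.19. The ratio of TSC1 to TSC2 was 0.633 in the DDX5 shRNA library and 0.840 in the non-targeting library. TSC2 overlaps PKD1 in RefSeq, and PKD1 stood at 12.93 FPKM in the DDX5 shRNA library and 6.67 FPKM in the non-targeting library. How far reads of PKD1 enter the TSC2 value was not tested. TBC1D7, the third subunit of the complex, stood at 25.9 FPKM in the DDX5 shRNA library and 15.44 FPKM in the non-targeting library, with a log2 ratio of 0.71. DEPTOR stood at 18.3 FPKM in the DDX5 shRNA library and 11.28 FPKM in the non-targeting library, 1.62-fold more and short of 2-fold on FPKM + 1, with a log2 ratio of 0.65. MTOR, the kinase that DEPTOR binds, stood at 16.16 FPKM in the DDX5 shRNA library and 16.79 FPKM in the non-targeting library. The ratio of DEPTOR to MTOR was therefore 1.13 in the DDX5 shRNA library and 0.672 in the non-targeting library.

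EIF4EBP1, which encodes 4E-BP1, was the second most abundant of the 10 mRNAs in the DDX5 shRNA library and the most abundant in the non-targeting library. It stood at 428.64 FPKM in the DDX5 shRNA library and 161.38 FPKM in the non-targeting library, 2.66-fold more and a log2 ratio of 1.40. EIF4EBP2 went the other way, at 17.29 FPKM in the DDX5 shRNA library and 23.15 FPKM in the non-targeting library, a log2 ratio of -0.40. The ratio of EIF4EBP1 to EIF4EBP2 was 24.8 in the DDX5 shRNA library and 6.97 in the non-targeting library. The third paralog, EIF4EBP3, was listed at 1.81 FPKM in the DDX5 shRNA library and at 0 in the non-targeting library. EIF4EBP3 shares 70.8% of its 50-base windows with the readthrough gene ANKHD1-EIF4EBP3 (17.99 FPKM in the DDX5 shRNA library and 19.71 FPKM in the non-targeting library), so the listed values hinge on the way reads were shared out. None of the 10 genes shared a 50-base window of its longest coding transcript, sampled every 10 bases, with a transcript of another GENCODE v29 gene. Windows were compared in the sense direction only, so this check could not find overlap with a gene on the opposite strand.

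EIF4E, the protein that 4E-BPs sequester, was lower in the DDX5 shRNA library, at 17.58 FPKM against 27.25 FPKM in the non-targeting library, a log2 ratio of -0.60. The summed 4E-BP mRNA was 447.74 FPKM in the DDX5 shRNA library and 184.53 FPKM in the non-targeting library. For each FPKM of EIF4E there were 25.5 FPKM of 4E-BP mRNA in the DDX5 shRNA library and 6.77 FPKM in the non-targeting library, a 3.76-fold difference that does not depend on how the libraries are scaled to each other. EIF4EBP1 alone gave 24.4 per FPKM of EIF4E in the DDX5 shRNA library and 5.92 in the non-targeting library, and EIF4EBP2 alone 0.984 in the DDX5 shRNA library and 0.850 in the non-targeting library. EIF4E shares 5.05% of its windows with transcripts of other genes, mostly pseudogenes. These are ratios of mRNA levels, and neither protein amounts nor phosphorylation were measured.

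Ordered by level, the 10 genes ran DDIT4, EIF4EBP1, SESN2, DEPTOR, DDIT4L, EIF4EBP2, TSC2, SESN3, TSC1 and SESN1 in the DDX5 shRNA library. In the non-targeting library the order was EIF4EBP1, DDIT4, EIF4EBP2, DEPTOR, TSC2, TSC1, DDIT4L, SESN2, SESN3 and SESN1. With 1 library each, no spread was available to separate neighbours in these orders, and the closest neighbours were DEPTOR, DDIT4L and EIF4EBP2 among DDX5 shRNA cells (18.3, 17.82 and 17.29 FPKM). SESN2 took the third place in the DDX5 shRNA library, against the eighth in the non-targeting library.

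The genes nearest to each leading member in both libraries were found by distance on log2(FPKM + 1) over 2 libraries. The nearest to DDIT4 were WARS1 (406.16 FPKM in the DDX5 shRNA library, 89.94 FPKM in the non-targeting library) and SARS1, both genes of tRNA synthetases, at distances of 0.74 and 0.77. CCPG1, a receptor for autophagy of the endoplasmic reticulum, and SOSTDC1, a secreted antagonist of BMP and Wnt signals, lay nearest to SESN2, at 0.19 and 0.22. AIMP2, a scaffold of the tRNA synthetase complex, and MTHFD2, a mitochondrial folate enzyme, lay nearest to EIF4EBP1, at 0.09 and 0.17. The distance takes in level and ratio together, and by it the nearest genes to DDIT4 lay further off than those of SESN2 and EIF4EBP1.

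Other genes of the same pathway were set beside the 10 genes. Among all counted genes, 4.19% were 2-fold higher and 2.26% were 2-fold lower. At those shares, lists as short as these would hold few such genes or none. Of 21 further negative regulators of mTORC1, 19 reached a mean of 1 FPKM, none of these was 2-fold higher or lower, and their median log2 ratio was 0.14. TBC1D7 and PRKAB2, a regulatory subunit of the energy sensor AMPK, had the largest ratios at 0.71 and 0.61, and AKT1S1, which encodes the mTORC1 inhibitor PRAS40, stood at 57.13 FPKM in the DDX5 shRNA library and 46.16 FPKM in the non-targeting library. Of 29 mTORC1 subunits and activators, 27 were counted, again with none 2-fold apart, and their median was 0.08, which turned to -0.03 at the same total. RHEB stood at 84.03 FPKM in the DDX5 shRNA library and 83.78 FPKM in the non-targeting library, and RPTOR, the scaffold that defines mTORC1, at 10.87 FPKM in the DDX5 shRNA library and 9.68 FPKM in the non-targeting library. RRAGC, a Rag GTPase, had the highest ratio of that list at 0.83, and TELO2 and TTI1, which help assemble the kinase, had the lowest at -0.91 and -0.80. Of 18 genes of cap-dependent initiation and the S6 kinase arm, 17 were counted with none 2-fold apart and a median of -0.12. Within it EIF4G1, the scaffold of the cap complex, stood at 112.69 FPKM in the DDX5 shRNA library and 190.48 FPKM in the non-targeting library. MKNK2, a kinase of EIF4E, and PDCD4, an inhibitor of the helicase EIF4A, both had log2 ratios of 0.92, just short of 2-fold.

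The genes were then set beside lists of genes known to respond to the factors that can induce them. ATF4 and amino acid response genes had log2 ratios above 0 in all 25 cases: 22 of 25 were 2-fold higher, none was 2-fold lower, and the median log2 ratio was 1.71. Over all counted genes, 52% had a log2 ratio above 0 and 4.19% were 2-fold higher. The list was chosen with earlier results of these libraries known, so its counts describe it and test nothing. TRIB3, a pseudokinase that binds AKT, stood at 126.35 FPKM in the DDX5 shRNA library and 9.18 FPKM in the non-targeting library, and CHAC1, which degrades glutathione, at 69.5 FPKM in the DDX5 shRNA library and 6.76 FPKM in the non-targeting library. ATF4 mRNA itself stood at 601.83 FPKM in the DDX5 shRNA library and 309.42 FPKM in the non-targeting library, a log2 ratio of 0.96. The log2 ratios of DDIT4 and SESN2 lay above the median of that list, and those of EIF4EBP1 and SESN3 below it.

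Of 25 hypoxia target genes, 24 were counted, 6 of them 2-fold higher and none 2-fold lower, with a median of 0.32. Among all counted genes, 4.19% were 2-fold higher. Log2 ratios were above 0 for 18 of the 24 and below 0 for 6, down to -0.81, against 52% above 0 among all counted genes. Summed over the list, the level was lower in the DDX5 shRNA library, at 3435.77 FPKM against 3794.3 FPKM in the non-targeting library. That sum came mostly from ENO1, ALDOA and LDHA, named here for this reason, so it says little of the other genes. LDHA, with the lowest ratio, stood at 479.27 FPKM in the DDX5 shRNA library and 841.91 FPKM in the non-targeting library. Among the 2-fold higher genes, CA9 was listed at 2.21 FPKM in the DDX5 shRNA library and at 0 in the non-targeting library. VEGFA, the endothelial growth factor, stood at 185.27 FPKM in the DDX5 shRNA library and 28.65 FPKM in the non-targeting library, and P4HA2, a collagen prolyl hydroxylase, at 48.05 FPKM in the DDX5 shRNA library and 8.36 FPKM in the non-targeting library. SLC2A1, the glucose transporter GLUT1, was typical of the list, at 23.48 FPKM in the DDX5 shRNA library and 19.9 FPKM in the non-targeting library. The hypoxia median was 0.08 when genes averaging under 5 FPKM were left out.

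The glucocorticoid list held 13 genes, the inducible genes and the receptor. Of these, 10 inducible genes were analysed here and the receptor was not. Among the 10 analysed, log2 ratios were above 0 for 6 and below 0 for 4. In this list 1 gene was 2-fold higher and none 2-fold lower, with a median of 0.19. That gene was TSC22D3, the glucocorticoid-induced leucine zipper, at 109.35 FPKM in the DDX5 shRNA library and 6.86 FPKM in the non-targeting library, while NFKBIA stood at 29.39 FPKM in the DDX5 shRNA library and 27.35 FPKM in the non-targeting library. Of 18 FOXO factors and targets, 16 were analysed. Their log2 ratios were above 0 for 14 and below 0 for 2, against 52% above 0 among all counted genes. In this list 1 gene was 2-fold higher and none 2-fold lower, with a median of 0.32. TXNIP, a restraint on glucose uptake, was that gene, at 127.83 FPKM in the DDX5 shRNA library and 14.33 FPKM in the non-targeting library, and PINK1, a mitochondrial quality control kinase, had a log2 ratio of 0.98. FOXO1 stood at 3.54 FPKM in the DDX5 shRNA library and 3.51 FPKM in the non-targeting library, and FOXO3 at 8.54 FPKM in the DDX5 shRNA library and 6.49 FPKM in the non-targeting library. Among all counted genes, 4.19% were 2-fold higher, so the 2-fold count alone says little of the glucocorticoid or the FOXO list. The gene lists were chosen with earlier results of the same libraries known, and no test of which factor acted on the 10 genes was made.

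**Figure D4:**
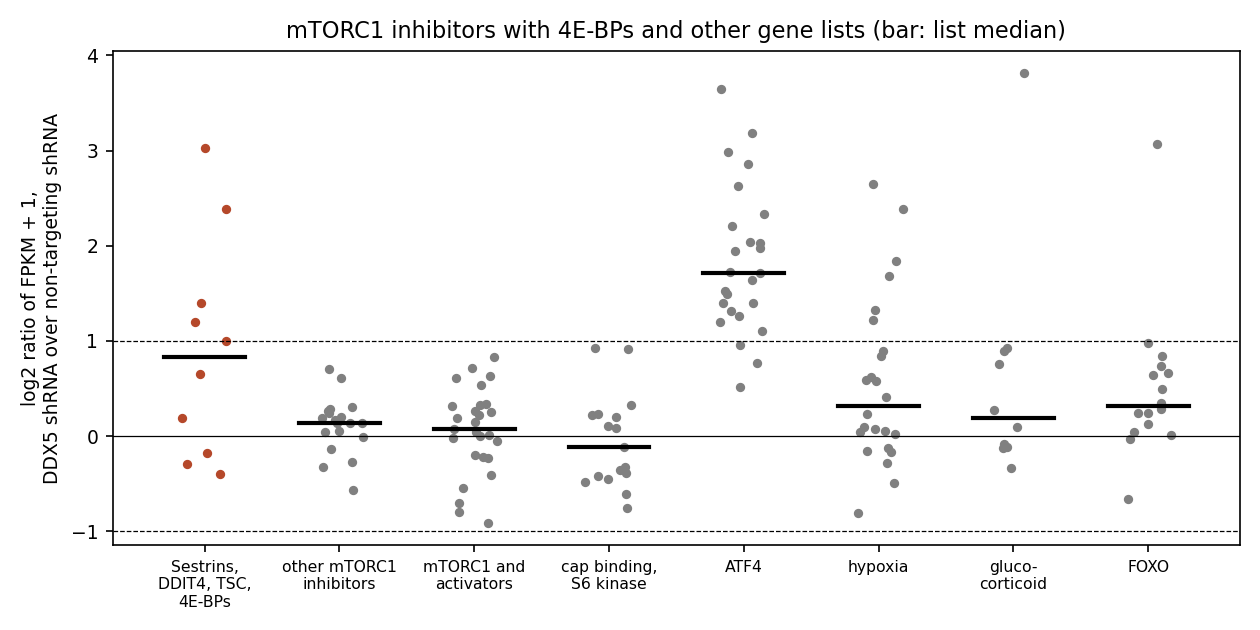
Log2 ratio of FPKM + 1, DDX5 shRNA over non-targeting shRNA, for each gene with a mean of 1 FPKM or more in 8 lists, with a bar at each median and dashed lines at 2-fold. The 10 genes in red spread from -0.40 to 3.02 around a median of 0.83, and the ATF4 list has a median of 1.71.

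**Figure D5:**
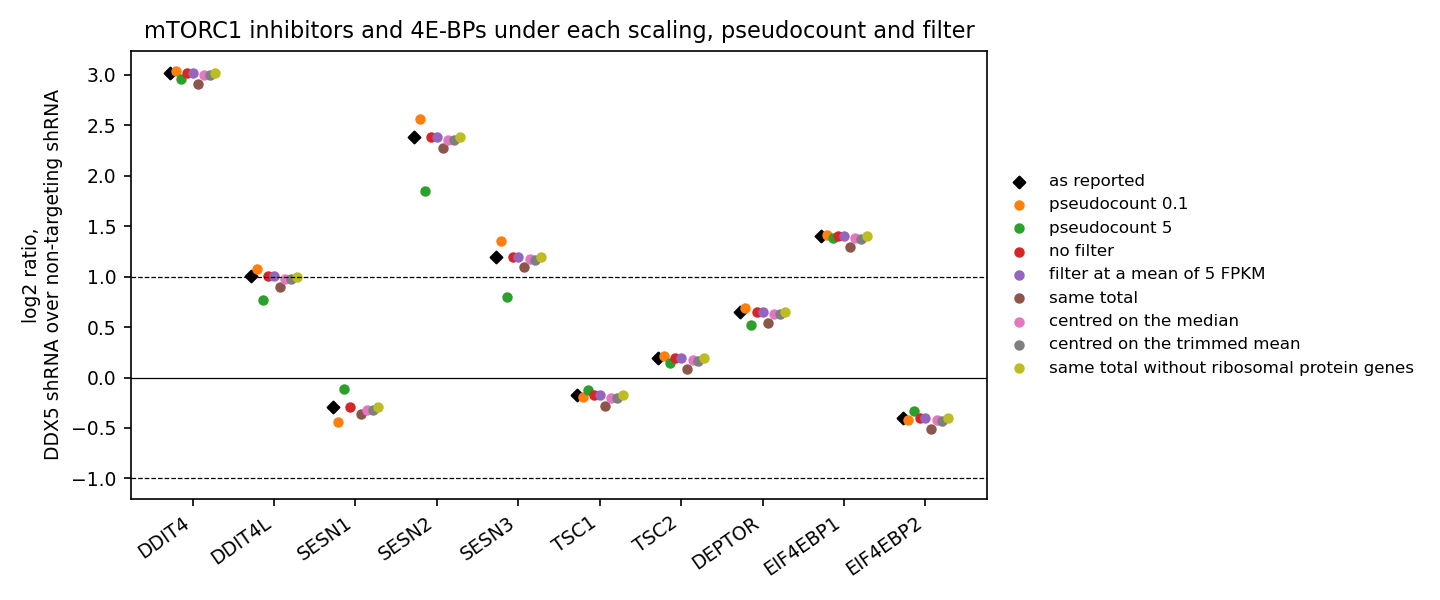
Log2 ratio of each of the 10 genes, DDX5 shRNA over non-targeting shRNA, as reported (black diamonds) and under 8 other choices of pseudocount, filter or scaling (coloured circles), with dashed lines at 2-fold and no point for SESN1 at the filter of 5 FPKM. DDIT4 stays between 2.91 and 3.04, while DDIT4L and SESN3 cross the 2-fold line under some choices.

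The filter changes only which genes are counted, and at 5 FPKM it leaves out SESN1. Under the other pseudocounts, scalings and centrings, each of the 10 genes kept the sign of its log2 ratio. DDIT4, SESN2 and EIF4EBP1 were at least 2-fold higher under every choice, with SESN2 between 1.85 and 2.56 and EIF4EBP1 between 1.29 and 1.41. SESN3 lay between 0.79 and 1.35 and DDIT4L between 0.77 and 1.08, so their place above the 2-fold line depended on the pseudocount and, for DDIT4L, also on the scaling.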

How the data were processed

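RNA from 1 culture per condition was sequenced with Illumina protocols, per the labels' protocols. The authors deposited FPKM with 2 decimals, each library in its own column, per the file headers. Per the submitters' processing notes, the human build was hg19 and the tools were RSEM 1.2.8, Bowtie2 and HISAT, whose roles and order are not stated. What annotation, strand setting and filters were used is not given in the sources used here. RSEM divides reads between similar transcripts by estimation, and FPKM does not correct for differences in library composition.

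Columns were assigned by sample title. RefSeq names (GRCh38.p14) matched 15289 of 16021 rows by Entrez number, and 0 columns of per-sample values were left unused. Python 3.11.15, numpy 2.4.6, pandas 2.3.3 and matplotlib 3.10.9 were used. Log2 ratios used a pseudocount of 1 and genes averaging at least 1 FPKM. The procedure was tested on simulated data, with large changes planted in well expressed genes only. That test does not bear on small ratios or on weakly expressed genes. The genes, lists, motifs and naming rule were chosen with earlier results of these data known. The rule names the 10 genes, DDX5, up to 4 genes per list with the largest absolute ratio and up to 2 nearest the median (only genes averaging at least 5 FPKM), some fixed regulators, and the 2 nearest genes to DDIT4, SESN2 and EIF4EBP1. Some results of the rule are not reported here. Marker genes and overlapping or copied genes serve stated checks.

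Depth is not stated in the table. Low values of short genes with 1 transcript gave, as whole steps, about 1.61e+07 fragments in either library. At that step 72.0% of 93 genes in the DDX5 shRNA library and 65.7% of 105 in the non-targeting library lay within 0.15 of a whole number. The depth was chosen to make this share largest, so the share does not check the depth. Fragment numbers of single genes used the full transcript length, without the length correction. Other length corrections gave 1.29e+07 to 1.81e+07 in the DDX5 shRNA library and 1.32e+07 to 2.06e+07 in the non-targeting library, so fragment numbers are approximate.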

Additional observations from a re-analysis of the deposited data

How the results depend on the processing

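Results were recomputed with a pseudocount of 0.1 or 5, without the filter, and with a filter of 5 FPKM, which leaves out SESN1. Libraries were also set to the same total, with or without ribosomal protein genes, or centred on their median or their trimmed mean (30% off each end). With a pseudocount of 5, the 2-fold higher genes among the 10 numbered 3 (DDIT4, SESN2 and EIF4EBP1) in place of 5, the log2 ratio of SESN2 was 1.85, and over all genes 194 were 2-fold higher and 102 2-fold lower. With a pseudocount of 0.1, 743 were 2-fold higher and 390 2-fold lower, against 478 and 258 as reported. At the same total the split was 376 higher and 380 lower, and 4 of the 10 were 2-fold higher (DDIT4L was not). With ribosomal protein genes left out of the total it was 472 higher and 259 lower, and 5 of the 10 were 2-fold higher. Both centrings also left 4. Among the other gene lists described, over genes averaging at least 5 FPKM the FOXO median was 0.66 and the hypoxia median 0.08, against 0.32 for both as reported. At the same total the medians of the glucocorticoid list and of the other mTORC1 inhibitors were both 0.08, and that of the mTORC1 activators was -0.03. No paired analysis was possible because each condition has 1 library and the result comes from no test, and no replicate could be left out. The depth limits SESN1 most among the 10 genes.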
